A study of Homo sapiens with 6 samples.

Results

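Potassium channel genes, those with symbols beginning with KCN, were examined in HK-2 cells exposed to TGF-β1. Members were all genes named KCN followed by letters and a number, counted on the primary chromosomes, and 94 of the 41497 named entries in the deposited gene tables met this rule. HK-2 cells are immortalised epithelial cells of the human proximal tubule. The series holds 3 control libraries and 3 TGF-β1 libraries, all from HK2 cells of WT genotype. The treatment label is Control for the first and TGF-beta1 for the second, with a time of 24 hours for both. The labels describe maintenance in DMEM-F12 with fetal bovine serum. The study's cell culture methods give a TGF-β dose in medium free of serum for treatment of attached HK-2 cells, without naming the sequenced cells separately. A different dose is given for its oxygen consumption assay. HK-2 is a single line, and nothing states that the replicates were separate cultures, so p-values measure the spread between these libraries.

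Potassium channels let K+ leave the cell down its gradient and set the membrane voltage. In the proximal tubule they return the K+ brought in by the Na/K pump, and the voltage they hold drives sodium-coupled uptake. The pore-forming families differ in how they open. Voltage-gated channels open on depolarisation, inward rectifiers (KCNJ) pass K+ most readily near rest, two-pore channels (KCNK) carry background or leak current, and calcium-activated channels (KCNM, KCNN) respond to Ca2+ inside the cell. Accessory subunits (KCNE, KCNIP, KCNAB) form no pore and modify the pore subunits. KCNF, KCNG, KCNS and KCNV subunits are called silent because they give current only in combination with pore-forming subunits.

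Libraries held 21.9 to 26.9 megacounts (M), and the KCN genes together took 0.0453% to 0.0471% of the counts. Replicates differed by more than sampling noise, with a chi-square per gene of 4.20 to 18.0, and the largest values involved TGF-β1 replicate 1. Of 12 proximal tubule markers, 5 passed the count filter, and LRP2 and SLC22A6, which mark the mature segment, had no reads. Summed CPM (counts scaled to 1000000 per library, with library sizes by TMM) of this list was 309 to 343 in control and 193 to 226 after TGF-β1, with AQP1 and CUBN higher and PAX8 and GGT1 lower. Summed CPM of 6 fibroblast markers was 59.9 to 69.3 and 58.2 to 59.7. In this list PDGFRB and COL6A3 rose and LUM and THY1 fell, and DCN and PDGFRA did not pass the filter. Summed CPM of 5 endothelial markers was 0.940 to 1.68 and 0 to 0.0955, with CDH5 the 1 member tested, at 62 reads in control and none after TGF-β1. For 8 markers of other nephron segments it was 0.620 to 1.02 and 0.165 to 0.239, with none tested and 4 without reads. For 6 leukocyte markers it was 96.3 to 107 and 85.4 to 111, with CD3E and MS4A1 at 0, CSF1R higher and CD68 lower. The part of these shifts in the results that follow was not tested. All 6 genes of a TGF-β response list rose, from FN1 at a log2 fold change of 0.98 to COL1A1 at 3.30.

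Most KCN genes were not expressed well enough to be tested. No reads at all were found for 21 of the 94 genes, which at 142 M counts in all allows a level of up to 0.0211 CPM, or 3 counts. Another 33 genes had reads but did not pass the count filter, and 40 were tested. Such limits cover counting error only. The largest group, the voltage-gated genes, had 15 of 39 tested and 11 without reads. Among the 16 inward rectifier genes 5 were tested, among the 15 two-pore genes 7, among the 9 calcium-activated genes 5, and among the 12 accessory genes 8. None of the 3 genes KCNT1, KCNT2 and KCNU1 for sodium-activated and related channels was tested, and they had 2 reads together.

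**Figure D1:**
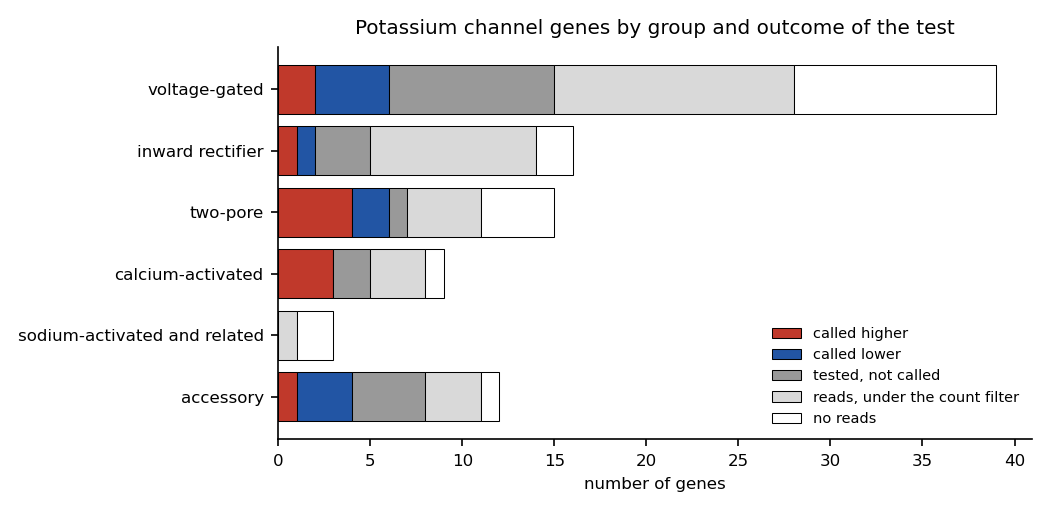
Number of potassium channel genes (horizontal axis) in each group, divided by outcome. Red and blue mark genes called higher and lower after TGF-β1, dark grey those tested but not called, light grey those with reads that did not pass the count filter, and white those without reads. The two-pore genes had 6 of 7 tested members called, and the voltage-gated genes 6 of 15.

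TGF-β1 changed 21 of the 40 tested KCN genes at an edgeR adjusted p under 0.05, which is 52.5%, where the background over all 14860 genes tested was 44.3%. Of these, 11 were higher and 10 were lower, against backgrounds of 22.2% and 22.1%. The median log2 fold change was 0.00 over the KCN genes and 0.01 over all genes. Called changes of at least 2-fold were found for 9 of 40 genes (22.5%), against a background of 9.06%. KCNG1, KCNK3 and KCNK12 rose by this much (background 3.68%). KCNJ16, KCNIP1, KCNK2, KCNK15, KCNQ3 and KCNIP3 fell by this much (background 5.38%). The CPM values of the groups did not overlap for 23 of the 40 genes (57.5%), where the background was 55.6%. Since RNA was measured in bulk, fewer cells expressing a gene and less RNA per cell cannot be told apart.

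The number of rises changed in more settings than the number of falls. Rises numbered 7 with DESeq2 and 7 with scaling by total counts only. They numbered 7 on leaving out replicate 2 of control, 6 without replicate 3 of control and 7 without replicate 2 of TGF-β1. In the other settings they numbered 9 to 11. Falls numbered 9 with DESeq2, 9 with a mean of at least 50 counts and 11 without replicate 3 of TGF-β1. With every gene with a count fitted, where more genes were tested, they numbered 13. In the other settings there were 10 falls. Scaling by total counts only moved the median of all genes by -0.11 and gave a split of 7 higher to 10 lower, where TMM gave 11 to 10. Of the 21 calls, 6 were lost in at least 1 alternative, among them those of KCNAB1, KCNMB4, KCNJ14, KCNK5 and KCNK15, and the other 15 were kept in all that tested them.

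**Figure D2:**
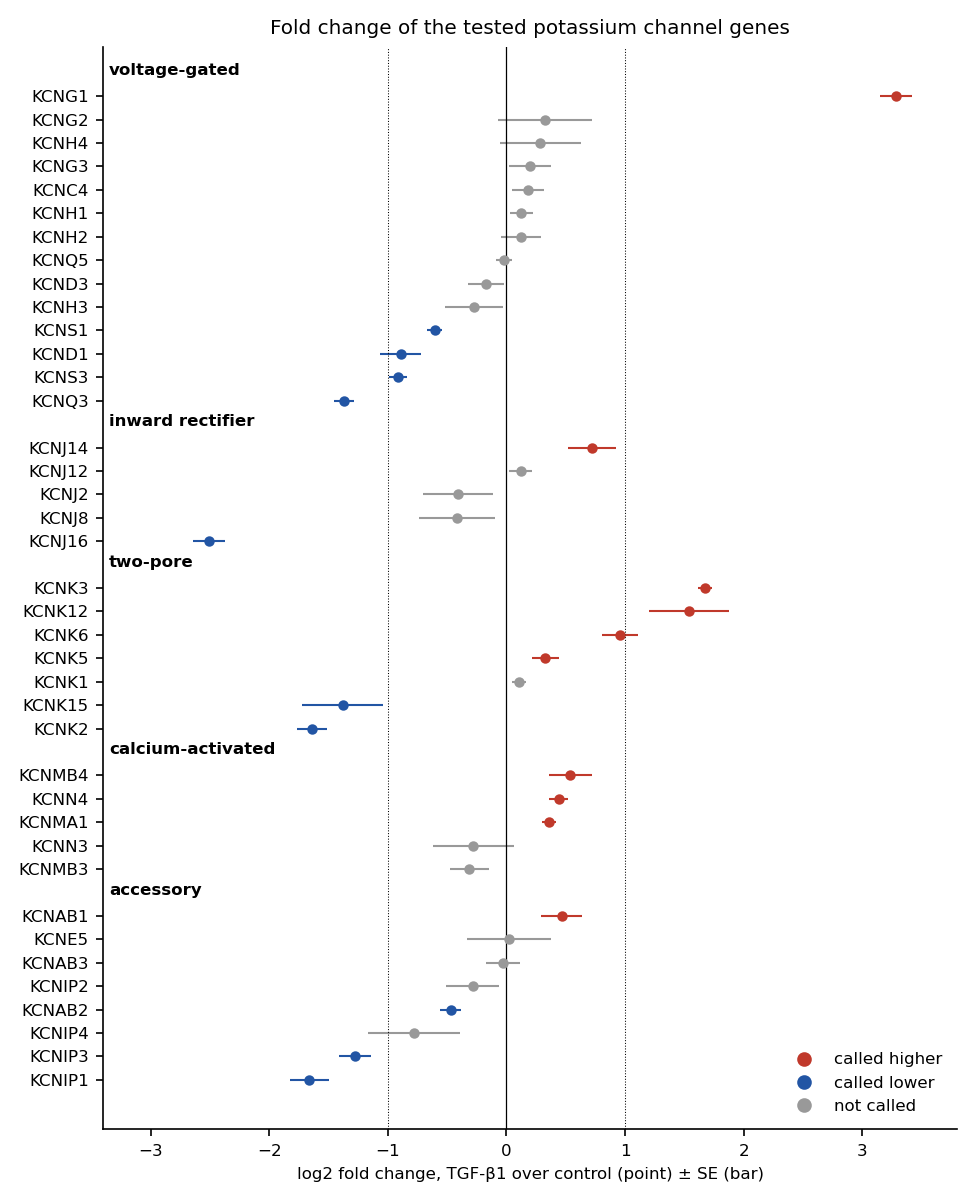
Log2 fold change of TGF-β1 over control (horizontal axis) for 39 of the 40 tested genes, by group, with points for the edgeR estimate and bars for its SE. Dotted lines mark a change of 2-fold. KCNG1 at 3.28 lies farthest to the right and KCNJ16 at -2.51 farthest to the left.

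Promoters are shown for 4 called genes of opposite response whose RefSeq start coincided with the start in the gene tables. KCNK3 and KCNK6 rose, and KCNJ16 and KCNS3 fell. The changes of KCNK6 and KCNS3 were less than 2-fold. KCNG1, which had the largest rise, and KCNK12 had no matched promoter and are not in the motif counts. Each sequence holds the 250 bases before the start on the plus strand of GRCh38.p14, 5′ to 3′, and capitals mark CAGAC or its complement GTCTG, the short motif bound by SMAD3 and SMAD4. The windows are chr2:26692472-26692721 for KCNK3, chr19:38319595-38319844 for KCNK6, chr17:70074975-70075224 for KCNJ16 and chr2:17877597-17877846 for KCNS3.
KCNK3: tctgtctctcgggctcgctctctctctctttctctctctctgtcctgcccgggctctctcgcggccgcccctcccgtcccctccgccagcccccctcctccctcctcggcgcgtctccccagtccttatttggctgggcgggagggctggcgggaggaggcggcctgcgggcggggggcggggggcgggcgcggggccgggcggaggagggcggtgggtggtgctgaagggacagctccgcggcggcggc
KCNK6: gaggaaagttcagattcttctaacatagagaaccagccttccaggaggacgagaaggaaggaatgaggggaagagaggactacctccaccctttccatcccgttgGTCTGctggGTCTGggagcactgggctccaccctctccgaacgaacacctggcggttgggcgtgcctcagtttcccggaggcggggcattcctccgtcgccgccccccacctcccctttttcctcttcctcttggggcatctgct
KCNJ16: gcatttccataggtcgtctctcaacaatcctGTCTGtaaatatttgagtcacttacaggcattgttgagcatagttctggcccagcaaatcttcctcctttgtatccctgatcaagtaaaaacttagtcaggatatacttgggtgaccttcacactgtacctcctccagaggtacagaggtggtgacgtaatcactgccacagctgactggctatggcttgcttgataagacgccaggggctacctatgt
KCNS3: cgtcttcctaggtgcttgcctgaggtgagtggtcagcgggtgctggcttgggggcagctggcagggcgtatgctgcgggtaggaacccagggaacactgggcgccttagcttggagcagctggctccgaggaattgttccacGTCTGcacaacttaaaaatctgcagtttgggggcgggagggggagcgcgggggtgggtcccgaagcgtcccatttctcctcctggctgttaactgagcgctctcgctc

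Both strands were searched. The KCNK3 window had none of these motifs, that of KCNK6 had 2, and those of KCNJ16 and KCNS3 had 1 each. GC content was 76.4% for KCNK3, 59.6% for KCNK6, 46.4% for KCNJ16 and 62.4% for KCNS3. Promoters in the RefSeq table were matched for 70 of the 94 genes, with the entry nearest to the start in the gene tables used. No limit of distance was set, and the window of KCNN2 lay 306092 bases from that start. The motif CAGAC was in 40.0% of these 70 windows, and in 38.0% of all 35116 promoter windows of this length. It was in 5 of 7 matched genes called higher, in 3 of 7 called lower and in 5 of 16 tested but not called. Some of these windows were not at the start in the gene tables. Those of KCNAB1 and KCNN4 (higher) and KCNIP3 (lower) lay 2332, 1166 and 49333 bases from it. The GC box GGGCGG was in 57.1% of the KCN windows and 42.6% of all, with 7 in KCNK3. The motif TGANTCA, bound by AP-1, was in 4.29% and 6.57%, and KCNJ16 held 1. A match is a description of these letters and not of binding.

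Among the silent voltage-gated subunits, KCNG1 rose and KCNS1 and KCNS3 fell. Gene positions are those of the gene tables, for which the submitters' notes name hg38. KCNG1 (chromosome 20, 51003656 to 51023176) had 1.73, 2.49 and 1.96 CPM in control and 22.0, 19.8 and 18.6 CPM after TGF-β1. The lowest TGF-β1 library lay far above the highest control library. The rise was 9.74-fold, on the log2 scale 3.28 ± 0.13 (SE), at 1.26e-08 for the adjusted p of edgeR. KCNS3 (chromosome 2, 17877847 to 17932961) had 22.0, 22.5 and 23.5 CPM in control and 11.4, 11.8 and 13.0 CPM after TGF-β1. Its log2 fold change was -0.91 ± 0.07 (edgeR adjusted p 3.09e-06), and the groups did not overlap. KCNS1 (chromosome 20, 45091214 to 45101127) had 42.1, 41.2 and 38.9 CPM in control and 25.5, 27.8 and 26.9 CPM after TGF-β1, a log2 fold change of -0.61 ± 0.06 (edgeR adjusted p 2.15e-05).

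The summed CPM of the 10 silent genes was 69.0 ± 1.156 in control and 63.0 ± 0.765 after TGF-β1 (SD, n = 3). KCNG1 thus moved from a small to a large part of this sum while KCNS1 and KCNS3 moved down. KCNB2, a pore subunit with which silent subunits are known to combine, had no reads. KCNG2 and KCNG3 were tested and not called, at 0.33 ± 0.39 and 0.20 ± 0.18.

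Among the 10 tested pore-forming voltage-gated genes, KCNQ3 and KCND1 fell. KCNQ3 (chromosome 8, 132120858 to 132481095), a subunit of the slow M-type current, had 19.2, 17.4 and 18.4 CPM in control and 6.76, 7.49 and 6.97 CPM after TGF-β1. All TGF-β1 libraries were less than every control library, by a log2 difference of -1.37 ± 0.08, at 2.8e-07 for the adjusted p of edgeR. KCNQ5, of the same family, had 24.0, 24.5 and 24.9 CPM in control and 22.5, 25.7 and 24.2 CPM after TGF-β1. These values overlapped, and KCNQ5 was not called at -0.02 ± 0.07.

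KCND1, the pore of a rapidly inactivating current, fell from 2.97 ± 0.285 to 1.60 ± 0.159 CPM (SD, n = 3), or -0.89 ± 0.17 on the log2 scale (edgeR adjusted p 0.00161). KCND3 of that family was not called, at -0.17 ± 0.15, and KCND2 had no reads. KCNC4, the pore of a rapidly inactivating A-type current, was not called, at 0.18 ± 0.14. The 4 tested KCNH genes, KCNH1, KCNH2, KCNH3 and KCNH4, were not called and had log2 fold changes between -0.28 and 0.29. KCNH1 was called without TGF-β1 replicate 1, at 0.21. No member of the KCNA family taken by the rule was tested, and the largest number of reads there was 3, for KCNA6.

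Among inward rectifiers, the main change was the fall of KCNJ16 (chromosome 17, 70075225 to 70135608). This gene encodes a pH-sensitive subunit of the basolateral membrane of the tubule. It had 16.8, 14.2 and 17.2 CPM in control and 2.96, 2.32 and 3.20 CPM after TGF-β1. The level was 5.68-fold lower, on the log2 scale -2.51 ± 0.13 (SE), at 1.01e-07 for the adjusted p of edgeR. KCNJ16 is known to form channels with the products of KCNJ10 and KCNJ15. Control libraries held 8 and 1 reads of these and TGF-β1 libraries 7 and 4, and neither passed the filter. The neighbouring KCNJ2 was not called, at -0.41 ± 0.30, with 0.580 ± 0.0812 and 0.438 ± 0.0346 CPM (SD, n = 3), although its groups did not overlap.

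KCNJ14 rose from 1.53 ± 0.199 to 2.53 ± 0.516 CPM, or 0.72 ± 0.20 on the log2 scale (edgeR adjusted p 0.0141). Its exons overlap those of GRWD1 on the same strand, which rose by 0.35, and the call was lost with DESeq2, and also on leaving out replicate 3 of control or replicate 2 of TGF-β1. KCNJ12 was not called, at 0.12 ± 0.10, with 9.73 ± 0.752 and 10.6 ± 0.664 CPM. Its near-identical copy KCNJ18 had 1 read, and the split of reads between the pair is uncertain. KCNJ8, the pore of a channel gated by ATP, was not called at -0.42 ± 0.32, while its regulatory partner ABCC9 fell by 1.15 on the log2 scale. KCNJ1, the secretory channel of the distal nephron, had no reads. Without the count filter, 2 more inward rectifiers were called when every gene with a count was fitted, where the background was 26.8%. KCNJ13 had 28 control reads (6, 6 and 16) and 8 TGF-β1 reads (3, 3 and 2). Its read ratio was 0.263 (95% exact interval on pooled reads 0.104 to 0.592, for counting error only). Its exons overlap those of GIGYF2 on the opposite strand. KCNJ4 had 8 control reads (4, 4 and 0) and none with TGF-β1, so control replicate 3 matched the TGF-β1 libraries. In all, that fit called 4 of the 16 inward rectifier genes, of which 2 had no reads.

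Two-pore genes were the group with the largest share of calls, 6 of 7 (85.7%, background 44.3%), and moved in both directions. Of these calls, those of KCNK5 and KCNK15 were lost with DESeq2. KCNK3 (chromosome 2, 26692722 to 26733420), an acid-sensitive background channel, had 20.6, 19.3 and 20.7 CPM in control and 67.1, 63.3 and 63.3 CPM after TGF-β1. The 3 TGF-β1 libraries lay close together and well above control. The level rose 3.19-fold, on the log2 scale 1.68 ± 0.06, at 7.02e-09 for the adjusted p of edgeR. KCNK2 (chromosome 1, 215002920 to 215237093), a channel opened by membrane stretch and lipids, went the other way. It had 9.30, 10.2 and 9.12 CPM in control and 3.34, 2.73 and 3.10 CPM after TGF-β1, a log2 fold change of -1.64 ± 0.12 (edgeR adjusted p 1.57e-06).

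KCNK6 (chromosome 19, 38319845 to 38332076), a weak inward rectifier of endosomes and lysosomes, rose from 2.93 ± 0.335 to 5.69 ± 0.734 CPM (SD, n = 3), or 0.96 ± 0.15 on the log2 scale (edgeR adjusted p 0.000447). KCNK5, an alkaline-activated channel of the proximal tubule, rose by 0.33 ± 0.11 (edgeR adjusted p 0.0360). Its groups overlapped, with 11.4, 9.16 and 9.46 CPM in control and 11.3, 12.5 and 13.99 CPM after TGF-β1. That call was lost with DESeq2, with total counts only (0.22), and when replicate 2 or 3 of either group was left out. KCNK1, the two-pore gene with the highest mean level in control but below KCNK3 after TGF-β1, was not called at 0.11 ± 0.06. It had 21.3, 20.8 and 20.6 CPM in control and 23.0, 22.5 and 22.1 CPM after TGF-β1, so the groups did not overlap, and with total counts only its sign changed (-0.0010).

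KCNK12 and KCNK15, whose products give little or no current on their own, were low. KCNK12 had 7, 8 and 14 reads in the control libraries and 29, 22 and 34 in those with TGF-β1, a log2 fold change of 1.54 ± 0.34 (edgeR adjusted p 0.00366). Its exons overlap a gene on the opposite strand, and without knowledge of strand in the counting the reads of such a pair cannot be told apart. KCNK15 had 18, 19 and 15 reads in the control libraries and 10, 5 and 5 in those with TGF-β1, a log2 fold change of -1.38 ± 0.34 (edgeR adjusted p 0.00683), and was not called by DESeq2. KCNK4, KCNK16, KCNK17 and KCNK18 had no reads, and KCNK9 had 4.

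**Figure D3:**
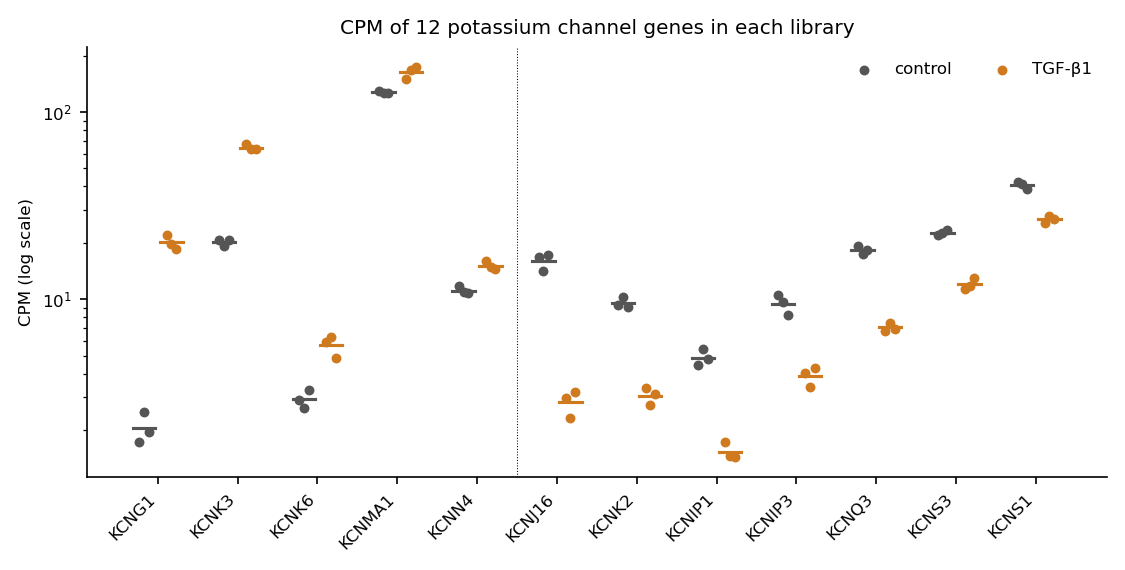
CPM on a log scale (vertical axis) of 12 potassium channel genes in each library, with grey points for control, orange points for TGF-β1 and lines for the group means. Genes left of the dotted line rose and those right of it fell, and in all 12 the 3 TGF-β1 points lie entirely on one side of the 3 control points. The 12 were picked among called genes with their values known, and the groups did not overlap for 55.6% of all genes tested.

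Calcium-activated channels had 3 members called, all higher and all by less than 2-fold. KCNMA1 (chromosome 10, 76869602 to 77637969), the pore of the large-conductance channel, had 129, 127 and 127 CPM in control and 150, 167 and 175 CPM after TGF-β1. The groups did not overlap, and the log2 fold change was 0.36 ± 0.06 (edgeR adjusted p 0.000805). KCNN4 (chromosome 19, 43766533 to 43782139), the intermediate-conductance channel that has been studied as a drug target in fibrosis, had 11.8, 10.9 and 10.7 CPM in control and 15.9, 14.8 and 14.6 CPM after TGF-β1. Its log2 fold change was 0.44 ± 0.08 (edgeR adjusted p 0.00115). Both calls were kept in every alternative, and with total counts only the values were 0.25 and 0.33.

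The auxiliary subunits of the large-conductance channel differed in their values. KCNMB4 rose by 0.54 ± 0.18 (edgeR adjusted p 0.0325), but the call was lost with DESeq2, with total counts only (0.43), with a replicate block, and without any 1 library other than TGF-β1 replicate 3. KCNMB3 was not called, at -0.31 ± 0.16, though all its TGF-β1 libraries were below control, and its exons overlap those of PIK3CA on the opposite strand. KCNMB1 had 1 read and KCNMB2 none. KCNN3 was not called, at -0.28 ± 0.34, with a sign that changed without control replicate 3, and KCNN1 and KCNN2 had 1 and 5 reads.

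Accessory genes had 1 rise and 3 falls among 8 tested. KCNIP1 (chromosome 5, 170353055 to 170736632), a calcium-binding subunit of KCND channels, had 4.43, 5.44 and 4.77 CPM in control and 1.73, 1.45 and 1.43 CPM after TGF-β1. Its log2 fold change was -1.66 ± 0.16 (edgeR adjusted p 1.2e-05). KCNIP3 (chromosome 2, 95297325 to 95386077), of the same family and also a calcium-regulated transcription repressor, had 10.5, 9.65 and 8.22 CPM in control and 4.03, 3.39 and 4.30 CPM after TGF-β1, a log2 fold change of -1.28 ± 0.14 (edgeR adjusted p 2.48e-05). In both genes every TGF-β1 library was lower than every control library.

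The other members of the KCNIP family, KCNIP2 and KCNIP4, were not called, at -0.28 ± 0.22 and -0.78 ± 0.39. KCNIP4 was called without TGF-β1 replicate 3, at -1.37. The summed CPM of the KCND genes, the pores that KCNIP subunits join, was 7.26 ± 0.578 in control and 5.40 ± 0.746 after TGF-β1 (SD, n = 3). KCNAB2, a cytoplasmic subunit of voltage-gated channels, fell from 19.7 ± 1.07 to 14.2 ± 1.40 CPM, or -0.47 ± 0.09 on the log2 scale (edgeR adjusted p 0.00114). KCNAB1 was called at 0.47 ± 0.17 (edgeR adjusted p 0.0479). This call was lost in 11 of 15 alternatives, and the exons of KCNAB1 overlap those of SSR3 on the opposite strand, which rose by 0.45. KCNAB3 was not called, at -0.03 ± 0.14. Of the KCNE genes only KCNE5 was tested, at 0.02 ± 0.35, and its sign changed in 5 alternatives. KCNE1 had no control reads and 4 with TGF-β1, its copy KCNE1B had none, and KCNQ1, the pore it joins in the tubule, had 5 and 3 reads.

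Levels between genes were compared in TPM (transcripts scaled to 1000000 per library), which is corrected for the gene length given in the gene tables. That length was 36873 bases for KCNMA1, which had the highest CPM of the KCN genes, at 128 ± 1.27 in control. The order in TPM therefore depends on these lengths, and TPM were not scaled by TMM. In control the order began with KCNS3 at 25.9 ± 1.35 and KCNK1 at 25.3 ± 0.161 TPM (SD, n = 3), which did not differ beyond their spread. KCNS1 followed at 20.6 ± 0.461 TPM and KCNAB2 at 12.2 ± 0.727 TPM. KCNMA1, KCNQ5, KCNJ16 and KCNN4 lay between 11.4 and 11.5 TPM and were also within their spread. After TGF-β1 the order began with KCNK3 at 31.6 ± 0.264 TPM, which had rank 9 in control at 10.7 ± 0.482 TPM. KCNK1 followed at 25.1 ± 0.432 TPM. KCNN4 at 14.3 ± 0.345, KCNMA1 at 13.6 ± 1.38, KCNS3 at 12.7 ± 1.09, KCNS1 at 12.5 ± 0.881 and KCNG1 at 12.3 ± 0.766 TPM came next, and each neighbouring pair of these lay within its spread. KCNJ16 moved from rank 7 in control to rank 22 after TGF-β1, and KCNG1 moved from rank 25 to rank 7. The 5 highest genes held 43.9% of the summed TPM of all KCN genes in control and 47.5% after TGF-β1.

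Summed over groups, the level of two-pore genes was higher after TGF-β1 and that of inward rectifiers was lower. Two-pore genes had 53.5, 51.2 and 52.7 TPM in control and 70.3, 72.2 and 72.5 TPM after TGF-β1, which is 24.1% ± 0.497 and 35.0% ± 0.684 of all KCN TPM (SD, n = 3). KCNK3 alone supplied 10.7 and 31.6 TPM of these means. Inward rectifiers had 21.0, 19.4 and 21.4 TPM in control and 9.83, 11.8 and 10.4 TPM after TGF-β1, with KCNJ16 at 11.5 and 1.86 TPM of the means. Voltage-gated genes had 84.1 ± 1.15 and 70.9 ± 3.49 TPM, accessory genes 33.8 ± 0.775 and 20.5 ± 0.322 TPM, and calcium-activated genes 26.98 ± 0.424 and 31.3 ± 1.38 TPM. In each of these 5 sums the groups of libraries did not overlap. The sum over all KCN genes was 218 ± 1.71 TPM in control and 205 ± 7.08 TPM after TGF-β1, while the summed CPM was 440.0 ± 5.39 and 484 ± 13.3. The direction of the total thus differed between the scales. They differ in the correction for length and in library scaling, since CPM used TMM library sizes and TPM did not. TMM factors were 1.03 to 1.05 in control and 0.958 to 0.972 after TGF-β1. Which of these gave the difference was not tested.

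**Figure D4:**
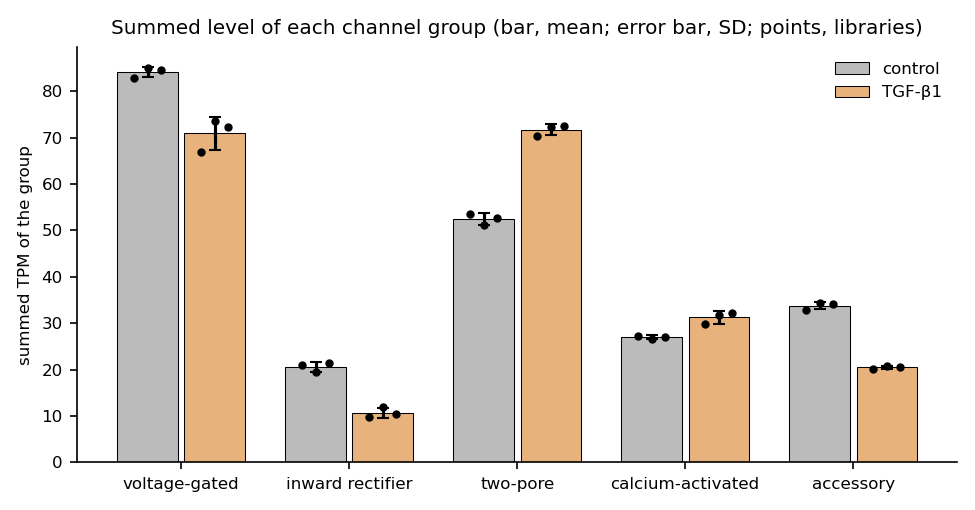
Summed TPM (vertical axis) of 5 groups of potassium channel genes in control (grey) and TGF-β1 (orange) libraries, with bars for the mean, error bars for the SD over 3 libraries and points for each library. Two-pore genes went from 52.5 to 71.7 TPM and inward rectifiers from 20.6 to 10.7 TPM. These TPM were not scaled by TMM.

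Of the groups, only calcium-activated genes had all their calls in one direction, on 3 calls, and no test of a difference between groups was made. The median log2 fold change of tested members was 0.12 for voltage-gated, -0.41 for inward rectifier, 0.33 for two-pore, 0.36 for calcium-activated and -0.38 for accessory genes, where that of all genes was 0.01. The share called was 85.7% for two-pore genes, 40.0% for voltage-gated and for inward rectifier genes, 60.0% for calcium-activated genes and 4 of 8 for accessory genes, against the background of 44.3%. Called changes of at least 2-fold were found in 4 of 7 two-pore, 2 of 15 voltage-gated, 2 of 8 accessory, 1 of 5 inward rectifier and 0 of 5 calcium-activated genes tested, against the background of 9.06%.

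Outside the count filter, 10 genes had 10 or more reads. When every gene with a count was fitted, KCNC2, a fast delayed rectifier of the KCNC family, was called. Control libraries held 7, 6 and 5 of its reads and TGF-β1 libraries 1, 0 and 1, which gives a read ratio of 0.102 (95% exact interval 0.0115 to 0.427). This interval pools the reads of each group and covers counting error only, not the spread between libraries. For KCNC2 and KCNJ13 the two-sided exact permutation p of CPM was 0.1, the smallest that 3 libraries against 3 can give. KCNV2 had 21 and 25 reads, KCNS2 14 and 8, KCNK7 15 and 9, KCNK10 8 and 8 and KCNC1 5 and 5. The other 23 genes with reads had 1 to 9 in all.

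Genes that work with potassium channels were taken from 5 fixed lists of pumps, cotransporters, partner subunits, regulators and other channels that pass K+. Of 61 genes, 35 were tested, and 6 were higher and 8 lower (40.0% called, background 44.3%). The Na/K pump imports the K+ that channels return. Of its 6 tested genes 4 rose and 1 fell, and the regulator FXYD5 rose by 0.52 ± 0.07. The beta subunits differed in sign, with ATP1B3, the most abundant gene of the list, at 0.27 ± 0.06 and ATP1B1 at -0.29 ± 0.05. FXYD6 was not called, at 0.43 ± 0.18. FXYD2, the pump regulator of the tubule, had 9 and 7 reads.

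None of the 5 tested cation-chloride cotransporters was called by edgeR or DESeq2, and 0 had an unadjusted p under 0.05 with either. They had log2 fold changes from -0.14 to 0.15, and SLC12A4 was the most abundant, at 0.05 ± 0.06. Among partner subunits, ABCC9 was the one gene called of 5 tested, from 8.74 ± 0.300 to 3.94 ± 0.267 CPM (SD, n = 3). The calmodulin gene CALM2, the most abundant of that list, was not called at 0.11 ± 0.05. Of 11 tested kinases and ubiquitin ligases, SGK2 fell by 1.73 on the log2 scale, NEDD4L by 0.95 and SGK1 by 0.14, and CUL3 rose by 0.22. The call of SGK1 was lost in 5 alternatives. Among 8 other tested channels, CNGB1, a subunit of cyclic nucleotide-gated channels, fell by 2.42, CNGA1 by 0.97 and PKD2 by 0.38 on the log2 scale. HCN2, a channel opened by hyperpolarisation, rose by 0.74 ± 0.11, and TMEM38B, the most abundant, was not called at 0.12 ± 0.06.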

How the data were processed

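RNA was measured by sequencing in 3 control and 3 TGF-β1 libraries of HK-2 cells. The authors deposited 1 table per library with raw counts, TPM and FPKM for each gene. The submitters' processing notes name featureCounts 2.0.1, DESeq2 1.16.1, CASAVA and hg38 without their roles, and the aligner is not given in the sources used here. The TPM and FPKM deposited by the authors were recomputed from counts and lengths and differed by at most 3.57e-06. Per library, 7 broken records were rejoined, and unnamed loci (0.396% to 0.464% of counts) were left out. Counts were tested with edgeR 4.0.16 (R 4.3.3) by TMM scaling, filterByExpr with a minimum count of 10, and the quasi-likelihood test with Benjamini-Hochberg adjustment over 14860 genes. Calls had an adjusted p under 0.05. CPM were computed from TMM library sizes. Libraries held 21.9 to 26.9 M counts.

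Genes described in full were those called with a log2 fold change of at least 1 in size and 1 CPM, the 5 with the highest TPM, the most abundant called and uncalled gene of each group, and near-identical pairs. Of the partner lists these were the 3 largest rises and falls and the most abundant gene. Other genes, motifs and promoters shown were chosen after their values were seen. Members and lists were chosen with earlier results of these data known. Some genes are not reported here. Alternatives were DESeq2 1.42.0, other scalings, filters and prior counts, a replicate block, summed entries and leaving out each library. The tests were checked on simulated data. Python 3.11.15, pandas 2.3.3, scipy 1.17.1 and matplotlib 3.10.9 were used.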

Additional observations from a re-analysis of the deposited data

How the results depend on the processing

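Of the 21 called potassium channel genes, 15 kept their call in all of the 15 alternatives that tested them, and none of the 21 changed direction. The number called higher was 11, and it was 7 with DESeq2 and 7 with total counts only. Leaving out 1 library gave 6 to 9, namely 6 for control replicate 3, 7 for replicate 2 of either group and 9 for the others. The number of inward rectifier genes called was 2, and it was 1 with DESeq2, 4 with all genes with a count (more genes tested), 1 with a mean of at least 50 counts (fewer genes tested), and 1 to 2 on leaving out 1 library, with 1 for control replicate 3 and for TGF-β1 replicate 2. The sign changed for KCNK1 (-0.0010) and SLC12A4 (-0.0621) with total counts only, for KCNQ5 on leaving out TGF-β1 replicate 1 (range over left-out libraries -0.0729 to 0.0187) and for KCNAB3 on leaving out control replicate 3 (range -0.1417 to 0.0655), none of which was called. Apart from the number of genes tested, the cause was not tested.

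The labels number the replicates of both groups 1 to 3, but same-numbered libraries deviated together with correlations of 0.11, -0.01 and 0.08, so the numbers were not taken to pair them, and not every library correlated best with its own number. A fit with the replicate block called 9 potassium channel genes higher and 10 lower, and 6790 genes in all against 6582. Genes with few reads are limited by depth.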

Other observations

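Another 27 entries had names beginning with KCN but did not match the rule, most of them antisense or intronic transcripts of the channel genes. No reads were found for 10 of them, and 1 was tested. This was KCNH1-IT1, with 74 control reads, 70 with TGF-β1 and a log2 fold change of -0.10 ± 0.24 (edgeR adjusted p 0.775). KCNIP1-AS1 had 29 control reads and 6 with TGF-β1, beside the fall of KCNIP1. KCNIP2-AS1 had 32 and 20 reads, KCNIP4-IT1 9 and 1, KCNQ5-DT 20 and 18, and KCNQ5-IT1 20 and 19. KCNRG, a suppressor of voltage-gated channels, had 23 and 22 reads. Whether the counting used strand is not stated, so reads of an antisense transcript and of an overlapping gene cannot be told apart.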
